A study of Mus musculus with 14 samples.

Results

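Binding of the myogenic regulatory factors MyoD and MyoG was compared within activated muscle stem cells of the mouse (ASCs), using 3 MyoD and 3 MyoG chromatin immunoprecipitation sequencing (ChIP-seq) libraries. Peaks of the 6 lists that overlapped by 1 bp or more were merged into 5779 regions, and a region was called recurrent for a factor when at least 2 of its 3 libraries listed a peak there. In all, 2193 regions were recurrent for at least 1 factor. Of these, 1911 had peaks of MyoD and none of MyoG (hereafter MyoD-only), 198 had peaks of MyoG and none of MyoD (MyoG-only), and 11 were recurrent for both. The other 73 were recurrent for 1 factor with a single library of the other. The percentages of all 5779 merged regions were 33.1% MyoD-only, 3.43% MyoG-only and 0.19% of both.

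The mice were labelled wild-type and carried a mito-Dendra2 allele switched on by Pax7-Cre(ERT2), so that cells of the Pax7 lineage and their progeny fluoresce. Tamoxifen was given at 75 mg/kg on 5 consecutive days, and 2 days later the tibialis anterior was injured with 50 μL of 1.2% BaCl2. ASCs were sorted 2 days after injury as CD34-, Dendra2+ and DAPI- cells, and both factors were measured in cells of this gate, with 1 antibody each. Quiescent stem cells (QSCs; CD34+, Dendra2+, DAPI-) came from the saline-injected opposite muscle, and their 6 peak lists are used below only to describe the ASC regions. The labels do not say whether replicates were separate animals or pools, so p-values measure only the spread between libraries. The lists hold no read counts, so depth is unknown and a missing peak means only that none passed the score of 50 at which the lists start. The score is −10 log10 of the peak caller's p-value. No expression was measured here, so the label of the cells could not be checked against levels of marker genes.

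MyoD and MyoG are basic helix-loop-helix transcription factors that pair with E proteins and bind E-boxes, short palindromic DNA sites of the form CANNTG. MyoD appears when muscle stem cells leave quiescence and helps commit them to the muscle lineage, whereas MyoG is switched on later, as myoblasts stop dividing and differentiate. Both have long been studied at the same muscle genes, among them those of the acetylcholine receptor and the sarcomere.

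Promoters on which the peaks lay are shown first, with the E-boxes found in them. RefSeq promoter windows (GRCm38.p6, 300 bases around each gene start) were searched on both strands for CAGCTG, for CAGGTG or its complement CACCTG, and for the general form CANNTG, which includes both. Of the 128 windows lying wholly within MyoD-only regions, from 119 genes, 57.8% held CAGCTG, against 16.3% of all 32851 windows. CAGGTG or CACCTG was in 32.8% of them against 20.2%, and CANNTG in 92.2% against 72.3%. Windows within regions listed by a single MyoD library, 137 in number, were alike, with CAGCTG in 62.8%. None of the 7 windows in MyoG-only regions and none of the 12 in regions of a single MyoG library held CAGCTG, and 1 of the 7 held CAGGTG. Of the 5 windows in regions recurrent for MyoD with a single MyoG library, 4 held CAGCTG and 5 held CAGGTG or CACCTG. No window lay wholly in a region of both factors. These shares are descriptions, and base composition was not matched.

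The 250 bases before the start of 7 such genes follow, with the searched hexamers (CAGCTG, or CAGGTG on either strand) in capitals. Chrna1, Acta1, Des and Tpm2 were chosen as muscle genes in MyoD-only regions, Rhobtb1 as the strongest MyoD promoter with a MyoG peak, Myog as a MyoD-only promoter without these letters, and Gm40987 as the MyoG-only window that held them.
Chrna1, chr2:73580339-73580588, minus strand: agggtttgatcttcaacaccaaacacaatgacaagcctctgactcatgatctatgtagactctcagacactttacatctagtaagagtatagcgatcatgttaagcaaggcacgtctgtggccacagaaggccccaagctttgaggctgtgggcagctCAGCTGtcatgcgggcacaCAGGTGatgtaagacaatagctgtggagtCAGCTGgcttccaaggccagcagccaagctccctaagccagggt
Acta1, chr8:123894776-123895025, minus strand: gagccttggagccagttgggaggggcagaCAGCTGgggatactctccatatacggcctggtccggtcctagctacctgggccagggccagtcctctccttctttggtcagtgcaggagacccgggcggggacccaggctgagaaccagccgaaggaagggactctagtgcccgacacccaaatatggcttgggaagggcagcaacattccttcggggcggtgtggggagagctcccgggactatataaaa
Des, chr1:75360042-75360291, plus strand: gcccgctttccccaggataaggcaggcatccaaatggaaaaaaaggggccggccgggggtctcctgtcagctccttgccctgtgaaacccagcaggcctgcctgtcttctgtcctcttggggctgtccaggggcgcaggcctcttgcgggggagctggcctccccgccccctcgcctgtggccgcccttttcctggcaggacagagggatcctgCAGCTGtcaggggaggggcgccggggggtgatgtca
Tpm2, chr4:43523555-43523804, minus strand: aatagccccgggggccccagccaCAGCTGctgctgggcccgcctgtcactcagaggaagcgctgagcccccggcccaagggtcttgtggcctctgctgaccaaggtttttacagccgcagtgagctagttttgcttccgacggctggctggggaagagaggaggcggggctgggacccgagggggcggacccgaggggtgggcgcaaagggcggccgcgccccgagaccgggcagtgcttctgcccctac
Rhobtb1, chr10:69208302-69208551, plus strand: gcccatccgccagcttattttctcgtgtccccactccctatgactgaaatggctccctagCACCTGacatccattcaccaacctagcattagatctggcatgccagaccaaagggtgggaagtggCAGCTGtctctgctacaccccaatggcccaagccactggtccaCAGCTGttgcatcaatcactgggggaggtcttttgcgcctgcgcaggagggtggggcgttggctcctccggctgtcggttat
Myog, chr1:134289754-134290003, plus strand: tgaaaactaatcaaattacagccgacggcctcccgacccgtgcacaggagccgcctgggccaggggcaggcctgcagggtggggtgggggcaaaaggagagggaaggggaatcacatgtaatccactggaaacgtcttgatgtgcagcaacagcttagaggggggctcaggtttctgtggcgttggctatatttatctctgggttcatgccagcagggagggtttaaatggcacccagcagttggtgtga
Gm40987, chr13:65990997-65991246, minus strand: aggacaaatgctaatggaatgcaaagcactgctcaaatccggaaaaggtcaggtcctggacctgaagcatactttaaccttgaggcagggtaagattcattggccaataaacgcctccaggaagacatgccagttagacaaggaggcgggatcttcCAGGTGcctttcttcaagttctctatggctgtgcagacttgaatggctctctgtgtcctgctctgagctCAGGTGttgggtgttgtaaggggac

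Chrna1, the alpha subunit of the muscle acetylcholine receptor, holds 2 CAGCTG and 1 CAGGTG, and its region scored 201, 212 and 106 in MyoD replicates 1 to 3. Rhobtb1 also holds 2 CAGCTG, and its MyoD scores of 682, 483 and 449 stood beside a MyoG peak of 78.7 in replicate 2 alone. The promoter of Myog itself had MyoD peaks of 50.7 and 54.2 in replicates 1 and 3 and no MyoG peak in any library, so it lay at the lower edge of the lists. Gm40987, a predicted gene, had MyoG peaks of 95.3, 76.6 and 66.4 and holds CAGGTG at 2 places.

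**Figure D1:**
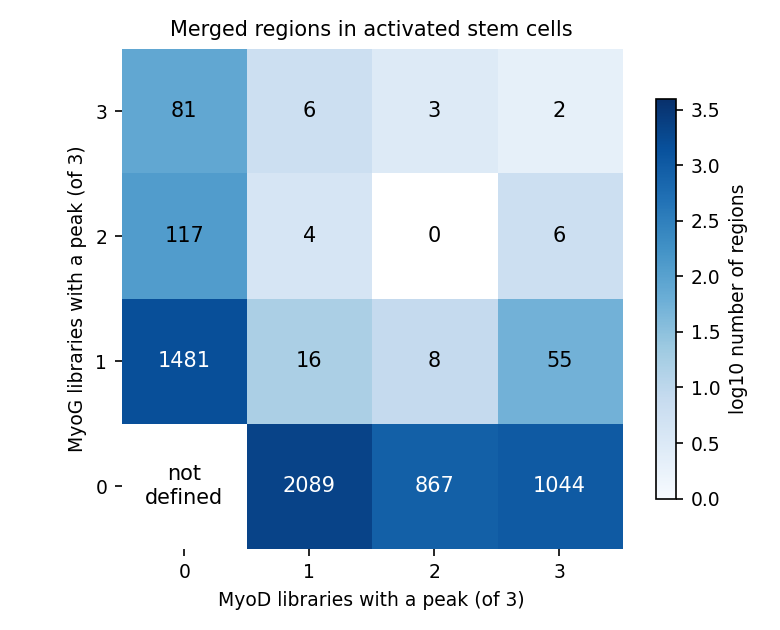
Number of merged regions by how many of the 3 MyoD libraries (x axis) and of the 3 MyoG libraries (y axis) of ASCs listed a peak there; colour gives the log10 number. Most regions lie along the 2 edges, 1044 of them in 3 MyoD and 0 MyoG libraries and 81 in 3 MyoG and 0 MyoD libraries, while 2 regions were listed in all 6.

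The first comparison asked whether the factors marked different places. The plot of regions by library number shows that few regions left the edges. MyoD-only regions were found in all 3 libraries at 1044 of 1911 places and MyoG-only regions at 81 of 198. Of the 1985 regions recurrent for MyoD, 74 had a MyoG peak in any library, and of the 219 recurrent for MyoG, 21 had a MyoD peak in any library. The 11 regions of both made up 0.554% of the first and 5.02% of the second set. With a library left out, recurrence needs both of the 2 remaining libraries of that factor, so its counts fall by the rule. Without MyoD replicate 1, 2 or 3 the MyoD-only regions numbered 1224, 1392 or 1384. Leaving out MyoG replicate 1, 2 or 3 gave 120, 122 or 123 MyoG-only regions and 6, 7 or 8 regions of both.

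The 3 lists of each factor resembled each other and differed from those of the other factor in what the peaks lay on. Introns held 35.4%, 35.0% and 34.9% of the peaks of MyoD replicates 1 to 3, against 21.3%, 21.2% and 21.8% for MyoG. Distal intergenic sequence held 35.8% ± 1.12 (SD, n = 3) of MyoD and 59.2% ± 0.808 of MyoG peaks, and promoters, within 3 kb of a start by the authors' annotation, 22.5% ± 0.751 and 15.5% ± 1.49. Genes with predicted names or of multi-copy families (names such as Gm or Rik models, immunoglobulin, zinc-finger and Speer genes) were the gene given to 17.0% ± 0.438 of MyoD peaks and to 56.9% ± 1.31 of MyoG peaks. The median peak was 815 ± 45.4 bp wide for MyoD and 659 ± 14.6 bp for MyoG. The MyoD lists were also longer, by 1.76 on the log2 scale, and 70.8% ± 2.26 of MyoD peaks against 28.8% ± 6.19 of MyoG peaks recurred in another library of the factor. Without MyoD replicate 1, 2 or 3 this last difference of 42.0 percentage points was 27.9, 30.7 or 30.9. Without MyoG replicate 1, 2 or 3 it was 47.2, 50.5 or 49.4. A peak then had only 1 other library of its factor to recur in.

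In none of these 7 measures did the ranges of the factors overlap. Each gave an exact two-sided permutation p of 0.1 (0.1 after Benjamini-Hochberg adjustment over the 7), the smallest that 3 against 3 libraries allow, so that none could pass 0.05. At scores of 80 or more the promoter share difference (MyoD minus MyoG) turned to −1.03 percentage points and the median width difference to −505.7 bp, while the other differences kept their direction.

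**Figure D2:**
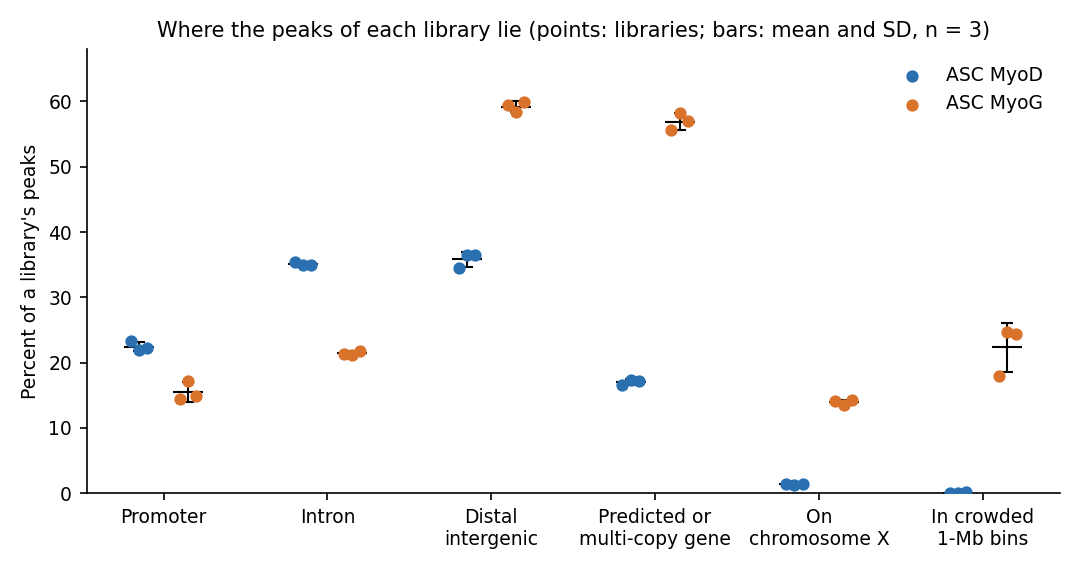
Percent of the peaks of each ASC library (y axis) in 6 kinds of place (x axis), for MyoD and MyoG; points are libraries and bars the mean and SD, n = 3. The crowded bins were chosen by their MyoG-only regions. Factors do not overlap in any of the 6, but for the crowded bins this follows from that choice. Introns held 35.1% of MyoD and 21.4% of MyoG peaks, and predicted or multi-copy genes 17.0% and 56.9%.

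The 11 regions recurrent for both factors lay in introns (5), distal intergenic sequence (5) and an exon (1), and none at a promoter. The centres of the MyoD and MyoG peaks were a median of 55.8 bp apart, and within 200 bp at 10 of the 11. At 7 of the regions, described first, the mean MyoD score was the higher. By rank within the lists MyoD was the higher at 6 of the 11. Scores of the factors come from different antibodies at unknown depth and are not on a common scale. The median score of a library averaged 72.0 for MyoD and 57.7 for MyoG.

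Mnat1, an assembly factor of the CDK-activating kinase, held the strongest, in intron 7 (chr12:73241590-73242747, mm10), with MyoD scores of 574, 358 and 505 and MyoG scores of 68.6, 70.05 and 88.7. Every MyoD score there was above every MyoG score. A region near the small nucleolar RNA model Gm26416 (chr15:31207005-31208088) gave 400.1, 253 and 288 for MyoD and 53.3 and 85.5 in MyoG replicates 1 and 2. Intron 3 of the semaphorin receptor gene Plxna1 (chr6:89347645-89349097) gave 292, 202.5 and 242 for MyoD and 94.9 and 52.3 in the same MyoG replicates. In both, as at Mnat1, the scores of the factors did not overlap.

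Intron 7 of Cap2, which regulates actin (chr13:46619284-46620337), had 228, 227 and 117 for MyoD and 53.0 and 68.7 in MyoG replicates 1 and 2. Intron 1 of Nckap5 (chr1:126484379-126485563) had 179.6, 208 and 163.7 for MyoD and 55.2 and 60.4 in MyoG replicates 2 and 3. The region near Gm23907 (chr15:65585211-65586359) was the least even for MyoD, at 419, 79.0 and 165, with MyoG at 69.3 and 59.3 in replicates 1 and 3. Near Zbtb18, a zinc-finger repressor (chr1:177555211-177556319), MyoD gave 189, 124 and 102 and MyoG 70.8 and 129 in replicates 1 and 3. Here the scores of the factors overlapped. By rank within the lists rather than score, MyoG was the higher at Zbtb18.

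At the other 4 the mean MyoG score was higher, and 3 of these 4 also had peaks in QSCs. Intron 10 of Dpp9, a dipeptidyl peptidase (chr17:56199582-56200567), scored 76.1, 136 and 71.1 for MyoD and 106, 179 and 128 for MyoG, and was listed in all 3 QSC libraries of each factor. The distal region given to Gm9075 (chr12:3109342-3110638) scored 87.2 and 91.9 in MyoD replicates 2 and 3 and 197, 135 and 138.5 for MyoG, with 2 QSC libraries of each factor. Exon 5 of Chl1, a neural adhesion molecule (chr6:103648530-103649747), scored 66.6 and 89.2 in MyoD replicates 2 and 3 and 86.6, 155 and 75.0 for MyoG, with 1 QSC library of each factor. Only Gm9075 remained recurrent for both at scores of 80 or more. The fourth was a 6873 bp stretch of chromosome X near 4932411N23Rik, where MyoD gave 71.2 and 81.5 in replicates 1 and 2 and MyoG 165, 179 and 117, with no QSC peak.

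**Figure D3:**
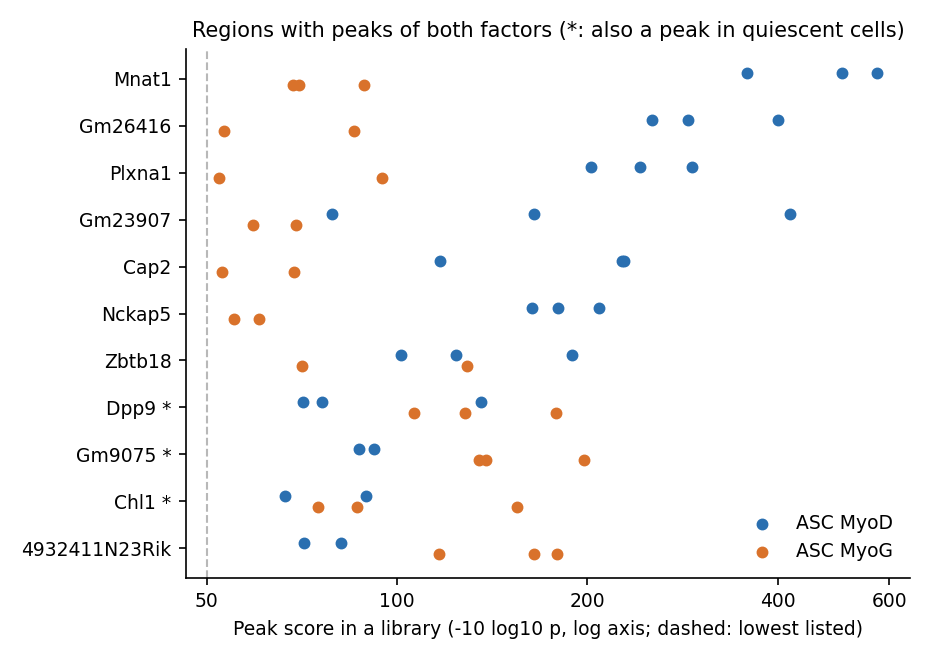
Score of each listed peak (x axis, −10 log10 p, log axis) at the 11 regions recurrent for both factors (y axis, by gene name), for MyoD and MyoG libraries of ASCs; an asterisk marks regions with a peak in QSCs. MyoD lies to the right of MyoG from Mnat1 down to Nckap5, and MyoG has the higher mean at Dpp9, Gm9075, Chl1 and 4932411N23Rik.

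QSC peaks, which the choice of regions had not used, were at 3 of the 11 regions of both (27.3%), at 17 of the 198 MyoG-only (8.59%) and at 13 of the 1911 MyoD-only regions (0.680%), against 0.917% of all regions. The regions recurrent for MyoG with a single MyoD library had a QSC peak at 5 of 10. Those recurrent for MyoD with a single MyoG library had one at 0 of 63. Of the 3586 regions recurrent for neither factor, 15 (0.418%) had one. Regions recurrent for MyoG thus held QSC peaks more often than the remainder, as a count without a test. At the MyoG-only regions, QSC peaks of MyoD lay at 11 and of MyoG at 9. MyoG-only regions were also wider than MyoD-only regions (median 1730.5 against 979 bp), and the part of width in these overlaps was not tested.

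The 63 regions recurrent for MyoD with 1 MyoG library ranked high in the MyoD lists and near the middle of the MyoG lists. Their median percentile rank within the lists was 78.3 for MyoD and 55.2 for MyoG. The mean MyoD score of these regions was above the MyoG score at 61 of 63, and 55 had all 3 MyoD libraries. The class was chosen for more MyoD than MyoG libraries, which favours this order, so it is no result about the factors. In the 10 regions of the opposite class the order was reversed, with median ranks of 85.3 for MyoG and 25.7 for MyoD. The single MyoG peak came from replicate 1 at 20, replicate 2 at 20 and replicate 3 at 23 of them. Its median scores were 58.1, 58.8 and 60.1, against 56.5, 58.3 and 58.3 for all peaks of these lists. Centres were a median of 70.3 bp apart and within 200 bp at 59 of the 63. Each MyoG list placed nearly the same number of peaks on recurrent MyoD regions, 32 of 916, 32 of 605 and 34 of 639, or 3.49% (95% Wilson interval 2.49% to 4.89%), 5.29% (3.77% to 7.37%) and 5.32% (3.83% to 7.34%). These intervals cover counting error only.

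The stronger the MyoD region, the more often a MyoG peak was listed on it. In 5 groups of 397 regions ordered by mean MyoD score, from lowest to highest, 4, 4, 12, 18 and 36 regions had a MyoG peak in any library, or 1.01%, 1.01%, 3.02%, 4.53% and 9.07%. Among regions with all 3 MyoD libraries the median MyoD score was 96.7 where no MyoG library had a peak (1044 regions), 143 where 1 had (55) and 206 where 2 or 3 had (8). Open chromatin and read depth at these regions were not measured here, and their part in this was not tested.

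**Figure D4:**
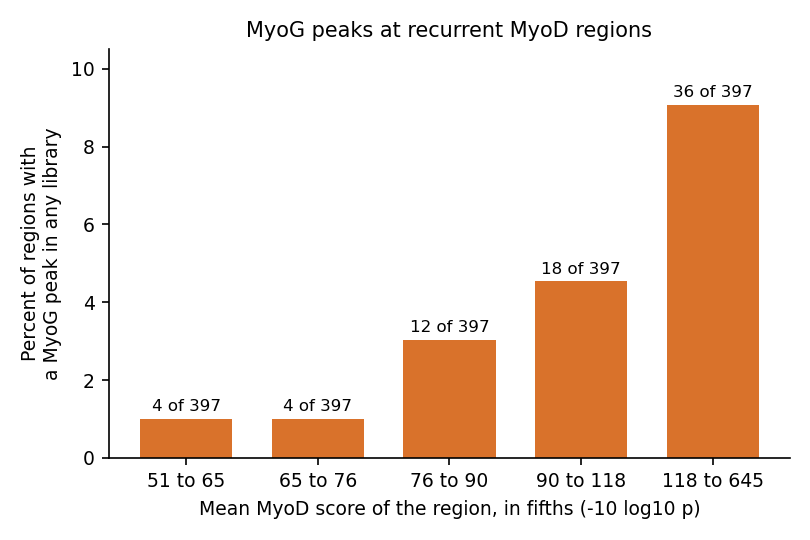
Percent of recurrent MyoD regions that had a MyoG peak in any of the 3 ASC libraries (y axis), in 5 equal groups by mean MyoD score (x axis, −10 log10 p); labels give the counts. The percent goes from 1.01 in the lowest group to 9.07 in the highest.

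Among these 63, the region in intron 13 of Tcf12, which encodes the E protein HEB, a partner of MyoD and MyoG, scored 376, 329 and 490 for MyoD and 92.5 in MyoG replicate 2. Rbfox2, a splicing factor active in muscle, had a region in intron 2 with a mean MyoD score of 286 and a MyoG score of 68.9 in replicate 3. The promoter of Rbm24, another muscle splicing factor, scored 134, 123 and 92.7 for MyoD and 55.2 in MyoG replicate 3. Rbfox2 and Rbm24 were chosen after their values were seen. Upstream of Myod1 lay 3 regions (chr7:46348425-46353939), of which the middle one, with 110, 247 and 129 for MyoD, had a MyoG peak of 54.0 in replicate 2.

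Of the 10 MyoD-only regions with the highest ranks, 6 lay in introns, 2 in distal intergenic sequence, 1 at a promoter and 1 across a promoter and an intron. All scored several times the lowest listed value in every library. The highest was the promoter of Arhgef2, a guanine nucleotide exchange factor (chr3:88629601-88630883), at 646, 533 and 755. Intron 3 of Olfml2b, an extracellular protein with an olfactomedin domain (chr1:170655216-170656360), scored 601, 459 and 564. Neither had a peak of MyoG or in QSCs.

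Intron 4 of Aida, an inhibitor of axin-dependent signaling (chr1:183309360-183310391), scored 537, 564 and 525. Intron 1 of Pstpip2, an F-BAR adaptor protein, scored 508, 365 and 381, and a distal region near Adora1, the adenosine A1 receptor, 389, 398 and 374. No MyoG peak was listed at any of these. Aida and Adora1 each also had a peak in 1 QSC library.

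Intron 2 of the phosphatase gene Ptp4a2 scored 435, 326 and 338. Intron 6 of Ddc, the aromatic amino acid decarboxylase, scored 423, 345 and 313, and intron 4 of Ppp1r13b, which encodes a p53-binding protein, 386, 307 and 386. A distal region near Dars, the aspartyl-tRNA synthetase, scored 307, 438 and 385. No MyoG peak was listed at any of them.

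The symbol with the most MyoD-only regions was Galnt2l, with 13, of which the highest scored 370, 354 and 548 across an intron and a promoter. These were, however, spread over 3.85 Mb of chromosome 8 (120046320 to 123896700), and the RefSeq promoter of Acta1, skeletal alpha-actin, lay in the last of them. That region scored 136, 86.8 and 68.3 for MyoD. The promoter of Chrnb1, the beta subunit of the acetylcholine receptor, lay likewise in a MyoD-only region, at 73.8, 73.8 and 60.7, that the authors' annotation gave to Fgf11. In all, 38 of the 119 genes with a promoter window inside MyoD-only regions were not the gene named for the region. Counts by gene name below follow the authors' names and leave such genes out.

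Cdh5 and Tead1 followed with 5 MyoD-only regions each, then Auts2, Frmpd1, Itgb6, Pde4b and Ppargc1b with 4. Tead1, a transcription factor that binds muscle M-CAT sites, had its strongest region in intron 9, with 284, 257 and 224. Cdh5, the endothelial cadherin, had only distal intergenic regions, spread over 0.257 Mb, the strongest at 191, 88.8 and 59.5.

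By gene name, 1550 of 3916 listed symbols were MyoD-only, 153 MyoG-only and 30 had both factors in 2 or more libraries each. Of 21887 protein-coding RefSeq genes these classes held 5.66% (1239), 0.315% (69) and 0.11% (24). A gene could be called on peaks that did not overlap. This was so for 96 of the 1550 MyoD-only and for 82 of the 153 MyoG-only genes, which held no region of that class. With 11 regions recurrent for both factors, most of the 30 genes of both held no such region. Without MyoG replicate 1 or 3 the MyoG-only genes numbered 82 or 93, and without MyoG replicate 1, 2 or 3 the genes of both numbered 14, 17 or 19.

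Genes of both were long. The median length of the 24 protein-coding ones was 320409 bp, against 59948 bp for MyoD-only, 44287 bp for MyoG-only and 17169 bp for all protein-coding genes, and 9 of the 24 exceeded 500 kb (1.04% of all). Examples, chosen after their values were seen, were Ptprd (a receptor phosphatase), Dab1 (an adaptor of reelin signaling), Sox5 (a transcription factor) and Ryr3. None of these held a region recurrent for both factors. At Ryr3, a calcium release channel, the recurrent region in intron 1 was MyoD-only, at 231, 208 and 157.

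Of 278 genes on 16 lists of muscle and stem cell genes, 87 (31.3%) were MyoD-only, against the 5.66% of all protein-coding genes given above. A single one was MyoG-only (Adgrb3, on peaks that did not recur at any region) and 1 was of both (Ryr3). Of all protein-coding genes, 0.315% were MyoG-only and 0.11% of both, so these counts cannot show a lack of MyoG at muscle genes. A further 7 were recurrent for MyoD with 1 MyoG library (Myod1, Mef2a, Tcf12, Elmo1, Lama2, Notch1 and Notch2). At Mef2a and Lama2 the MyoG peak lay outside the recurrent MyoD regions. Another 2 were recurrent for MyoG with 1 MyoD library (Dmd and Sgcd). Another 37 were not recurrent for either factor and 143 had no peak. The lists were drawn up with results of these data known and hold long genes, so the contrast with all genes is a description.

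**Figure D5:**
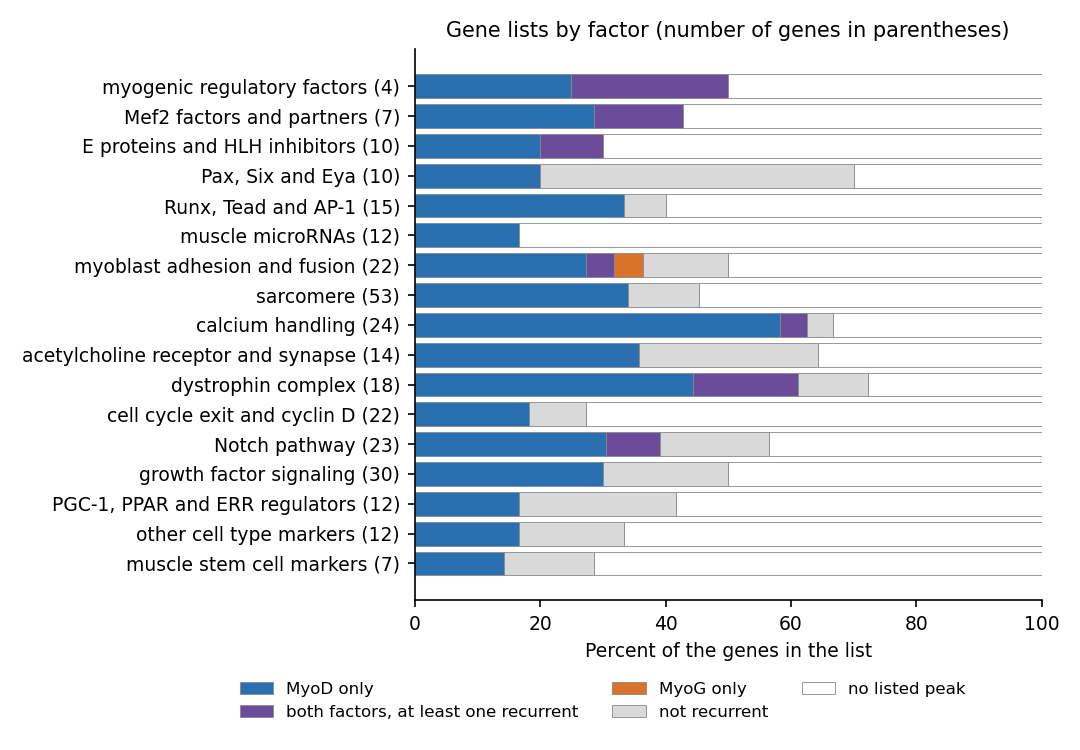
Percent of the genes of each list (x axis) by class of the gene (colours), for 17 lists (y axis, number of genes in parentheses). MyoD-only genes are present in every list and reach 58.3% for calcium handling, while MyoG-only is seen for 1 gene, in the list of adhesion and fusion genes. Of all protein-coding genes 5.66% were MyoD-only and 0.315% MyoG-only.

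Among the regulators, Myog was MyoD-only, Myod1 had the 3 upstream regions described above, and Myf5 and Myf6 had no peak. Mef2c, a MADS-box partner of the myogenic factors, had 3 MyoD-only regions, the promoter at 130, 126 and 79.5. Tead4 intron 8 scored 202, 231 and 164 and Runx2 intron 5 scored 182, 140 and 212. Of the 15 Runx, Tead and AP-1 genes 5 were MyoD-only, and none had recurrent MyoG peaks. With 0.315% of all protein-coding genes MyoG-only, 15 genes are too few to show a lack.

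The microRNA Mir206, which is restricted to skeletal muscle, had 3 MyoD-only regions between 20667234 and 20678371 on chromosome 1, just before its hairpin and that of Mir133b. They scored 117, 121 and 229, then 175, 159 and 139, then 132, 110 and 65.1. The mature products of the cluster have unlike seeds (bases 2 to 8, in capitals; RefSeq, GRCm38.p6), which is why both are shown.
mmu-miR-206-3p, chr1:20679055-20679076, plus strand: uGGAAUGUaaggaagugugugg
mmu-miR-133b-3p, chr1:20682834-20682855, plus strand: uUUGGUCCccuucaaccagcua

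The sarcomere list had 18 of 53 genes MyoD-only, among them titin (Ttn), nebulin (Neb), desmin (Des), beta-tropomyosin (Tpm2), fast troponin T (Tnnt3) and the myosin heavy chains Myh1, Myh3 and Myh8. The promoter of Ttn gave 104, 52.8 and 56.0, that of Tpm2 55.8, 90.4 and 119, and that of Des 84.2 and 111 in replicates 1 and 3. The highest was exon 2 of filamin C (Flnc), which crosslinks actin, at 242, 272 and 101. No sarcomere gene was recurrent for MyoG. Among all protein-coding genes 0.315% were MyoG-only and 0.11% of both, so 53 genes are too few to show a lack.

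Calcium handling had the largest share of the lists, with 14 of 24 genes MyoD-only. They cover excitation and release: the voltage sensor subunits Cacna1s, Cacna2d1 and Cacng1, the adaptor Stac3, the release channel Ryr1, the calcium pump Atp2a1 and its inhibitor Sln. Cacna1s intron 2 scored 207, 120 and 123, and Cacna2d1 intron 1 scored 228, 164 and 169. The promoter of Ryr1 scored 81.8, 160 and 110. All 3 stood clear of the lowest listed score in every MyoD library, with no MyoG peak.

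At the synapse, 5 of 14 genes were MyoD-only. The promoter of Rapsn, which clusters acetylcholine receptors, scored 359, 191 and 156, above Chrna1 in replicate 1 and 3 but not 2. Dok7, an adaptor of the receptor kinase MuSK, scored 120, 116 and 85.0 at its promoter. Utrn, the synaptic relative of dystrophin, scored 232, 315 and 123 in intron 1.

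The dystrophin complex had 8 of 18 genes MyoD-only. Dag1, the dystroglycan gene, had 2 distal regions, the stronger at 164, 133 and 133. Dmd and Sgcd, dystrophin and delta-sarcoglycan, had MyoG peaks in 2 libraries and MyoD in 1, but no recurrent region, and their genes span 2390390 and 1018380 bp. Neither call therefore rests on a place seen in more than 1 library of a factor.

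For growth factors, 9 of 30 genes were MyoD-only, with Fgfr4, the FGF receptor of myoblasts, at 329, 219 and 261 in a distal region, and Met, the receptor for hepatocyte growth factor, at 252, 218 and 149 in intron 4. For Notch, which keeps stem cells quiescent, 7 of 23 were MyoD-only, and the ligand Jag2 scored 197, 102 and 142. Notch1 and Notch2 had MyoG peaks of 58.4 and 55.6 in 1 library each on MyoD regions. Of the 22 adhesion and fusion genes 6 were MyoD-only, with integrin alpha 7 (Itga7) at 262, 163 and 335 and the fusogen myomaker (Mymk) at 82.0 and 108 in replicates 1 and 2. Elmo1, which acts in Rac activation, had a region in intron 2 with 147, 77.6 and 127 for MyoD and 52.2 in MyoG replicate 3. Adgrb3, an adhesion receptor, was the MyoG-only gene, with peaks in 3 MyoG libraries and none of MyoD, but it spans 767297 bp and held no recurrent region.

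The remaining lists held fewer. Cell cycle exit and cyclin D genes were MyoD-only at 4 of 22, with Ccnd1 at 181, 104 and 112. Of 10 Pax, Eya and sine oculis homeobox genes 2 were MyoD-only (Eya2 and Eya4), and of 12 PGC-1, PPAR and ERR genes 2 were. Among 7 stem cell markers Itga7 alone was MyoD-only, and Pax7 had a peak in 1 MyoD library. Of 12 markers of other cell types, the endothelial genes Pecam1 and Cdh5 were MyoD-only, Dcn and Pdgfra were not recurrent and the other 8, including Ptprc and Kdr, had no peak. A peak gives no level of a gene, and the part of other cells in these peaks was not tested.

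MyoG-only regions lay elsewhere in the genome. Of the 198, 116 fell in 5 bins of 1 Mb that each held at least 10 (crowded bins), namely 43 at 115 Mb of chromosome 12, 30 at 15 Mb of chromosome 5, 16 and 15 at 66 and 65 Mb of chromosome 13 and 12 at 20 Mb of chromosome 8. Another 29, or 14.6%, were on chromosome X, against 27 (1.41%) of MyoD-only regions. Chromosomes 5, 8, 12, 13 and X together held 83.8% of MyoG-only and 23.2% of MyoD-only regions, and 5 chromosomes had no MyoG-only region. Predicted or multi-copy genes were given to 84.3% of MyoG-only and 16.6% of MyoD-only regions, and the median region was 1730.5 bp and 979 bp wide. By the authors' annotation of the strongest peak, 28.3% of MyoG-only and 23.0% of MyoD-only regions were at promoters. This order was the reverse of that for all peaks. Region centres within 1 kb of a RefSeq start, chromosome 18 left out, made up 3.08% and 8.59%. A MyoG-only region was a median of 2.09 Mb from the nearest recurrent MyoD region, and 2 were within 10 kb.

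The crowded bins held clusters of alike genes. The predicted gene Gm21847 had 18 MyoG-only regions within 0.181 Mb of chromosome 5, and Gm10139 had 8 on chromosome 13. Gm26639, Ighv8-11, Speer4cos, Zfp640, Zfp998 and, outside these bins, 1600014C10Rik had 6 each. Immunoglobulin heavy chain variable genes on chromosome 12 were led by a region at Ighv1-75 with MyoG scores of 571, 279 and 579, and the zinc-finger gene Zfp998 on chromosome 13 scored 254, 553 and 180.2. Lower among the 10 highest were Gm26639 at 136, 206 and 213, Ighv1-69 at 188, 149 and 196, and the promoter of Ighv1-67 at 207, 171 and 127. Reads from near-identical copies may be placed at any of them, and the handling of such reads is not given. The position of these peaks is therefore uncertain, and this was not tested.

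Outside these bins 82 MyoG-only regions remained, 63.4% of them at predicted or multi-copy genes and 29 on chromosome X. The strongest was in intron 33 of Akap9, a scaffold of protein kinase A (chr5:4052154-4054768), at 518, 549.58 and 680.23, and the nearest recurrent MyoD region was 124734 bp away. Intron 1 of Ppp2r2b, a regulatory subunit of protein phosphatase 2A, scored 120, 162 and 185.5. Near Adam29, a testis metalloprotease gene, 3 ranked regions on chromosome 8 scored from 74.7 to 172 in the 3 libraries. The others among the 10 highest were at 1600014C10Rik, Gm7746, 4932411N23Rik, Btbd35f6 and Btbd35f29, the last 4 on chromosome X. None was at a gene of the muscle lists, but 10 regions are too few to show that MyoG-only regions avoid these genes.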

How the data were processed

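ChIP-seq against MyoD or MyoG was performed by the authors on sorted muscle stem cells crosslinked in 1% formaldehyde for 10 min and sonicated to about 500 bp. Per the labels, reads were processed with BWA 0.7.5 and MACS on mm10, and deepTools 3.5.0 is also named. The roles of these tools, the use of the 2 input libraries, and filters on multi-mapped reads or listed genomic artefacts are not given in the sources used here. The deposited files are peak lists, 1 per library, made by the authors with a score for each peak (−10 log10 of the p-value), its start and end as deposited positions, and an annotated part and gene. No score was below 50. The lists hold no counts, so depth and its precision are unknown.

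Peaks were read with Python 3.11.15, pandas 2.3.3, NumPy 2.4.6 and SciPy 1.17.1, merged at an overlap of 1 bp and classed by presence in 2 or more of 3 libraries. Classes of regions and genes carry no test, since they define the groups. For library measures, an exact permutation test (two-sided) set 3 libraries against 3. Region calling was tested on simulated data. Regions named were every region of both factors, and the 10 MyoD-only, 10 MyoG-only and 10 MyoG-only regions outside crowded bins with peaks in all 3 libraries and the highest mean rank of score. Genes named were those with most regions of a class and members of the lists with peaks in 2 or more libraries. Promoter windows and microRNAs were RefSeq sequences of GRCm38.p6, the assembly of mm10, and windows of chromosome 18 were not analysed here. Members and lists were chosen with earlier results of these data known. Alternatives were scores of 80 or more, other library minimums, other overlaps, no crowded bins and leaving out each library.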

Additional observations from a re-analysis of the deposited data

Results flagged for a closer look

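For 2 measures all MyoD libraries lay on one side of all MyoG libraries in ASCs and on the opposite side in QSCs. The mean intron share of peaks was 13.7 percentage points higher for MyoD in ASCs and had a MyoD minus MyoG difference of −9.81 in QSCs, so that the contrasts differed by 23.5. In QSCs introns held 20.5%, 22.3% and 21.8% of MyoD and 30.8%, 31.5% and 31.7% of MyoG peaks. The share of peaks at predicted or multi-copy genes had a mean MyoD minus MyoG difference of −39.9 in ASCs and 17.3 in QSCs, a gap of −57.2. In QSCs this share was 51.5%, 59.0% and 48.3% for MyoD and 41.7%, 32.1% and 32.9% for MyoG, against 16.5%, 17.3% and 17.2% for MyoD in ASCs. The difference between the states was not tested, and the QSC lists held 120 to 174 peaks each.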

How the results depend on the processing

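The 7 library differences kept their direction under leaving out any library and without crowded bins, but sizes moved. The difference in the share of peaks replicated within the factor, 42.0 percentage points, was 15.2 at scores of 80 or more. It was 27.9 to 30.9 without a MyoD replicate and 47.2 to 50.5 without a MyoG replicate. At that score log2 peak number went from 1.76 to 3.02 and the share at predicted or multi-copy genes from −39.9 to −61.5, and without crowded bins the promoter share went from 6.96 to 10.47. At scores of 80 or more, 2 turned, the promoter share to −1.03 percentage points (exact permutation p = 1) and the median width to −505.7 bp (exact permutation p = 0.1). The cause was not tested. Counts of MyoD-only, MyoG-only and both-factor regions were 841, 77 and 1 at scores of 80 or more, 1044, 81 and 2 with all 3 libraries, and 4000, 1679 and 100 with at least 1 library, by fewer or more peaks qualifying. Without crowded bins, MyoG-only regions numbered 82. The same gene classes numbered 769, 48 and 2 at scores of 80 or more, 922, 62 and 4 with all 3 libraries, 2687, 952 and 277 with at least 1, and 1022, 67 and 16 without distal intergenic peaks. Over libraries left out in turn, region counts ranged from 1224 to 1934 (MyoD-only), 120 to 203 (MyoG-only) and 6 to 10 (both), and gene counts from 1064 to 1616, 82 to 163 and 14 to 23. The low ends came without MyoD replicate 1 for MyoD-only classes and without MyoG replicate 1 for the others. Leaving out any library of a factor lowers its counts by the rule, since both remaining libraries are then required. Merging across gaps of up to 500 bp, overlap of 50% of both peaks and allowing the other factor in 1 library kept each region count within 1.5 times. With the replicate number as a block (replicate block), differences were the same, such as 1.76 for log2 peak number, and an exact sign-flip test gave p = 0.25, the smallest for 3 pairs. The labels do not say whether same-numbered libraries share animals, so the numbers were not taken as pairs. Deviations of same-numbered libraries correlated at 0.503, 0.192 and 0.035 over 7 measures. With 3 libraries per factor and related measures, these values cannot show whether the libraries are pairs. E-box shares per peak were not run, since no genome was used here. The unknown depth limits all statements about absent peaks.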
